A study of Mus musculus with 12 samples.

Results

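The IFIT, IFITM and Mx genes and Rsad2 are antiviral genes that interferons switch on. They were followed in bone marrow-derived macrophages (BM-Mɸs) as a set of 10 genes picked by symbol, of 22243 genes with a value. The set holds Ifit1, Ifit2, Ifit3, Ifit3b, Ifitm1, Ifitm2, Ifitm3, Mx1, Mx2 and Rsad2. All 10 were in the table, and 9 passed the filter for testing, an average level of 1 TPM or more. TPM is the abundance of transcripts scaled for their length and to the same total in each library. Mx2 was listed at 0 TPM in all 12 libraries. Bulk RNA sequencing was done on BM-Mɸs of 6 LysMCre/ErbB4-floxed mice (ErbB4myeKO) and 6 ErbB4-floxed littermates without Cre (ErbB4FF), 1 of each from 6 litters on a C57Bl/6 background. The comparison asks what loss of the receptor ErbB4 in myeloid cells does to activated macrophages. Every culture was grown with M-CSF and brought to the M1 state by 16 h of IFN-γ (100 U/mL) followed by 6 h of LPS (100 ng/mL), so no unstimulated level was measured. LysMCre sits in the Lyz2 gene and is active in myeloid cells, both groups carry the floxed alleles, and the labels give neither sex nor age.

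When LPS meets TLR4, the adaptor TRIF and the factor IRF3 turn on Ifnb1. The interferon β that is released acts back on the cells through its receptor, TYK2 and JAK1, and the complex ISGF3, which holds STAT2 and IRF9, binds interferon-stimulated response elements (ISREs) beside genes such as those of the IFIT family. IFN-γ signals through its own receptor to genes beside gamma-activated sites (GAS). IFIT proteins bind viral RNA, IFITM proteins sit in membranes and hinder viral entry, Mx proteins are large GTPases that act on viral nucleocapsids, and Rsad2 encodes viperin, an enzyme that makes a chain-terminating nucleotide. C57BL/6 and most other laboratory strains carry Mx1 and Mx2 alleles that make no functional protein.

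The stretches before the start sites are shown because ISREs are commonly found there. RefSeq start sites (GRCm38.p6) were at hand for 8 of the 10 genes, with none for Mx1 and Mx2. The ISRE letters, GAAA, any 2 bases and GAAA again, read on both strands, were found between 250 bases before and 50 bases after the start in 6 of these 8 genes, and in 3.44% of 32851 promoter windows of that length. The GAS letters TTCNNNGAA, which read the same on both strands, were found in 2 of the 8 and in 8.30% of all windows. Such a match is a description of the letters and does not show that a factor bound. For the 5 genes with an ISRE match upstream, 200 bases follow that end just before the RefSeq or the GENCODE M21 start, whichever lay further upstream, each 5′ to 3′ on the strand of its gene, with the matches in capitals. They lie at chr19:34640671-34640870, chr19:34583329-34583528 and chr19:34607757-34607956 on the plus strand, and at chr7:140955988-140956187 and chr12:26456453-26456652 on the minus strand.
Ifit1: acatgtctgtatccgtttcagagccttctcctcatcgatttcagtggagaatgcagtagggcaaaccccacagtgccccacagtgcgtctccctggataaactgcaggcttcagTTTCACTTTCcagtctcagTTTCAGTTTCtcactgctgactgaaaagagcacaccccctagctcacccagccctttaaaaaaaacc
Ifit3: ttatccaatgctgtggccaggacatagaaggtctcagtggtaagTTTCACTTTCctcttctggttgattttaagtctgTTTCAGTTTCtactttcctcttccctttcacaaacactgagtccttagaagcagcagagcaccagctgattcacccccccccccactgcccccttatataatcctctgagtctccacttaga
Ifit3b: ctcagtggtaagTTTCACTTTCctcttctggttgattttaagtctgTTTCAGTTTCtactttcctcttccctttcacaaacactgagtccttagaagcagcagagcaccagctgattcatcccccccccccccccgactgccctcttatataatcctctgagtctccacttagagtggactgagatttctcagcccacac
Ifitm2: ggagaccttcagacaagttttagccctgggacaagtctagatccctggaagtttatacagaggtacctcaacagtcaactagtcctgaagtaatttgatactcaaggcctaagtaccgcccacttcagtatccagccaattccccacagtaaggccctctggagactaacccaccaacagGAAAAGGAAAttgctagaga
Rsad2: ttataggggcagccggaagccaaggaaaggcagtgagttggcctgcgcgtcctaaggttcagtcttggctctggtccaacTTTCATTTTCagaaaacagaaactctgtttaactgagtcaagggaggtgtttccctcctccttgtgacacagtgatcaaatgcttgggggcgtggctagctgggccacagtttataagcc
Ifit1, Ifit3 and Ifit3b each held TTTCACTTTC followed by TTTCAGTTTC, which is the ISRE read from the other strand, and 2 or more matches were found in 0.225% of all windows. The bases upstream of Ifit3 and Ifit3b were 99.1% identical over 218 aligned bases. Ifitm3 held 2 ISRE matches, beginning at bases 3 and 20 counted from the RefSeq start, the second of which overlaps its GAS match. Ifit2, whose only match was a GAS 241 bases before the start, and Ifitm1 held no ISRE letters in these windows.

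The 4 IFIT members lie in 1 cluster on the plus strand of chromosome 19 (GRCm38, GENCODE M21). Ifit1 (ENSMUSG00000034459, chr19:34640871-34650009) ranged from 300 to 530 TPM (median 425) in the libraries labelled ErbB4FF and from 217 to 402 TPM (median 356) in those labelled ErbB4myeKO. The groups overlapped, with the lowest value in the ErbB4myeKO library of litter 2. Ifit1 had a log2 ratio of ErbB4myeKO over ErbB4FF of -0.29 (SE 0.13, exact permutation p = 0.0938, limma adjusted p = 0.603) and was lower in 5 of 6 litters. The exact permutation test swapped genotypes within litters, two-sided, and the adjusted p is that of limma with Benjamini-Hochberg adjustment over all genes. Ifit2 (ENSMUSG00000045932, chr19:34550694-34576419) ranged from 279 to 782 TPM (median 623) in ErbB4FF libraries and from 247 to 525 TPM (median 468) in ErbB4myeKO libraries. In litter 3 the ErbB4myeKO library was the higher, 360 against 279 TPM, and in the other 5 litters it was the lower. The log2 ratio of Ifit2 was -0.42 (SE 0.20, exact permutation p = 0.156, limma adjusted p = 0.603).

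Ifit3 (ENSMUSG00000074896, chr19:34583531-34588731) ranged from 204 to 900 TPM (median 460) in ErbB4FF libraries and from 166 to 509 TPM (median 314) in ErbB4myeKO libraries. Its log2 ratio was -0.45 (SE 0.21, exact permutation p = 0.125, limma adjusted p = 0.603). Ifit3b (ENSMUSG00000062488, chr19:34607970-34613401), a near copy of Ifit3, ranged from 9.25 to 128 TPM (median 27.8) and from 9.76 to 66.0 TPM (median 30.0). Ifit3b was lower in the ErbB4myeKO library in 4 of 6 litters, with a log2 ratio of -0.28 (SE 0.19, exact permutation p = 0.312, limma adjusted p = 0.667). The transcripts of both genes were 98.0% identical over 1697 aligned bases, and 61.8% of the 31-base words of Ifit3 also occur in Ifit3b, so the split of reads between them is uncertain. Summed to 1 value, an alternative chosen after the data were seen, they had a log2 ratio of -0.44 (limma adjusted p = 0.603). Both genes were low in litter 3 and high in litter 6, in either genotype.

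Rsad2 (ENSMUSG00000020641, chr12:26442746-26456452, minus strand) encodes viperin. It ranged from 265 to 739 TPM (median 563) in ErbB4FF libraries and from 194 to 541 TPM (median 431) in ErbB4myeKO libraries. The log2 ratio was -0.47 (SE 0.19, exact permutation p = 0.0938, limma adjusted p = 0.603), which is 72.4% of the ErbB4FF level, and in litter 3 the direction was the opposite (0.15). The table holds 1 of the 3 annotated transcripts of Rsad2, and 99.3% of its 31-base words recur in the others, so reads given to those are not in these values. Cmpk2, a nucleotide kinase gene next to Rsad2, had log2 ratios of the same sign as those of Rsad2 in each litter. They were -1.41 and -1.47 in litter 2, 0.05 and 0.15 in litter 3 and -0.74 and -0.45 in litter 6, Cmpk2 first. Over the 6 litters Cmpk2 had a log2 ratio of -0.49 (SE 0.19, exact permutation p = 0.0938, limma adjusted p = 0.603).

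**Figure D1:**
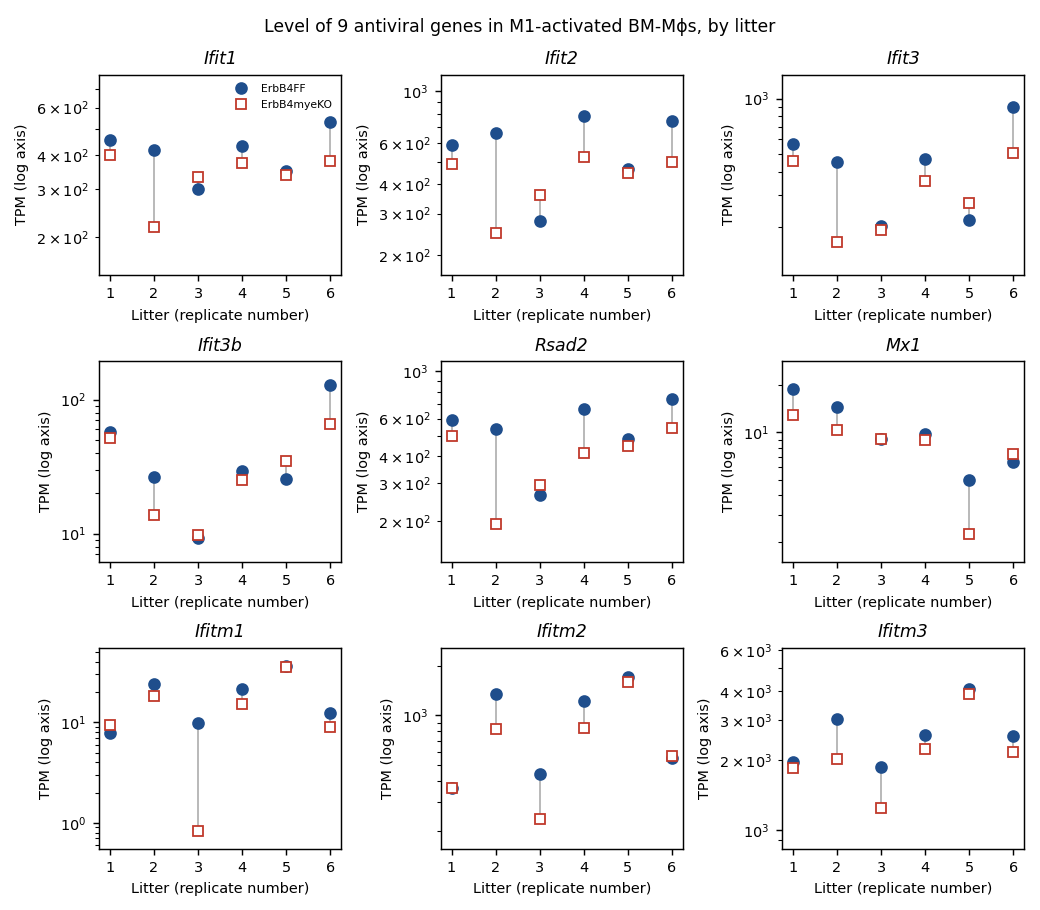
TPM (log axis) of 9 antiviral genes in each of the 12 libraries by litter, with filled circles for ErbB4FF, open squares for ErbB4myeKO and a grey line joining littermates. Ifitm3 is the only gene whose ErbB4myeKO square lies below its circle in all 6 litters, and the ranges of the genotypes overlap for every gene.

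The 3 IFITM members lie on chromosome 7. Ifitm3 (ENSMUSG00000025492, chr7:141009586-141010770, minus strand) was the most abundant member, ranging from 1872 to 4078 TPM (median 2565) in ErbB4FF libraries and from 1246 to 3890 TPM (median 2107) in ErbB4myeKO libraries. In all 6 litters the ErbB4myeKO library was the lower, by a log2 of 0.07 to 0.59, although the ranges of the groups overlapped. Its log2 ratio was -0.29 (SE 0.09, limma adjusted p = 0.603), or 81.8% of the ErbB4FF level, and the exact permutation p over the 64 swaps of genotype within litters was 0.0312, the smallest they can give. Ifitm2 (ENSMUSG00000060591, chr7:140954837-140955987, minus strand) ranged from 364 to 1699 TPM (median 886) in ErbB4FF libraries and from 234 to 1593 TPM (median 697) in ErbB4myeKO libraries. Littermates hardly differed in litter 1 (364 and 363 TPM), while in litter 2 they had 1339 and 827 TPM. The log2 ratio of Ifitm2 was -0.37 (SE 0.14, exact permutation p = 0.0938, limma adjusted p = 0.603), with the ErbB4myeKO library higher in litter 6. Of the 31-base words of Ifitm2, 55.5% also occur in other genes, so the reads given to it are uncertain. For Ifitm3 this share was 20.5%.

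Ifitm1 (ENSMUSG00000025491, chr7:140967221-140969825, plus strand) was far less abundant than Ifitm3. It ranged from 7.75 to 36.4 TPM (median 16.8) in ErbB4FF libraries and from 0.831 to 35.4 TPM (median 12.3) in ErbB4myeKO libraries. The log2 ratio of -0.68 (SE 0.39, exact permutation p = 0.0938, limma adjusted p = 0.641) rested on litter 3, where it was -2.96, and without that litter it was -0.22. With the highest transcript only it was -1.11. The ErbB4myeKO library of litter 3, which has the 0.831 TPM, also had the fewest genes above 0 TPM, 10214 against 10910 to 12985 in the other libraries. The authors' mean normalized counts, taken back from the natural log, were only 4.5 to 16.8 for the 3 transcripts of Ifitm1, against 7212 for Ifitm3.

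Mx1 (ENSMUSG00000000386, chr16:97447035-97462907, minus strand) had the lowest mean TPM of the 9 genes, though it was not separated from Ifitm1 (exact permutation adjusted p = 0.321), and with the highest transcript only Ifitm1 lay below it (log2 -0.43). Mx1 ranged from 4.98 to 18.8 TPM (median 9.39) in ErbB4FF libraries and from 2.26 to 12.8 TPM (median 9.01) in ErbB4myeKO libraries. Its log2 ratio was -0.33 (SE 0.16, exact permutation p = 0.156, limma adjusted p = 0.603), with the largest fall in litter 5 (-0.99) and a higher level in litter 6 (0.15). Without litter 5 the ratio was -0.19. The table holds 1 of the 10 annotated transcripts of Mx1, and 86.8% of its 31-base words recur in the others, so reads given to those are not in these values. Mx2 (ENSMUSG00000023341, chr16:97535308-97560900, plus strand), a polymorphic pseudogene in GENCODE M21, has 1 of 5 transcripts in the table, and 98.9% of the 31-base words of that transcript recur in the others. A value of 0 TPM for it therefore does not show that Mx2 was silent.

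**Figure D2:**
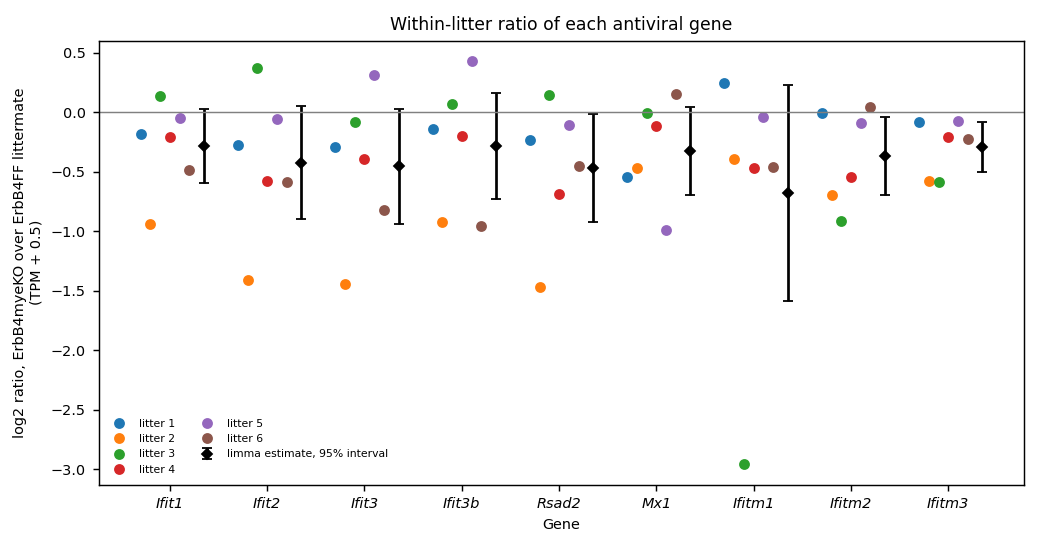
Log2 ratio of TPM + 0.5, ErbB4myeKO over its ErbB4FF littermate, for each gene, with 1 coloured point per litter and a black diamond with a bar for the limma estimate and its 95% interval. All 9 estimates are below 0, litter 2 lies far below the other litters for Ifit1, Ifit2 and Rsad2, and Ifitm1 has its lowest point (-2.96) in litter 3.

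All 9 tested genes had a mean log2 ratio below 0, as had 50.2% of the 8780 genes tested. Their median was -0.37, against -0.0007 for all genes. Ifitm3, Ifitm2 and Rsad2 were lower at an unadjusted p under 0.05 (limma), 3 of 9 genes against 4.38% of all genes. After Benjamini-Hochberg adjustment none of the 9 genes passed 0.05 (limma adjusted p from 0.603 to 0.667), nor did any gene of the table (0%, with 721 genes, or 8.21%, at an unadjusted p under 0.05). Those 721 were 385 lower and 336 higher, a split that turned to 255 lower and 436 higher with each library scaled to its total over the deposited transcripts. Of the 9 genes, 8 were lower in at least 5 of 6 litters, which held for 14.3% of all genes, and 1, Ifitm3, in all 6, which held for 2.31%. These members were chosen with such results known, and they move together, so their counts are not independent evidence of a direction.

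The size of the difference varied from litter to litter. In litter 2 all 9 genes were lower, with a median log2 ratio of -0.92, whereas in litter 5 the median was -0.06 and in litter 3 it was -0.0013. Ifit1, Ifit2 and Rsad2 were lower in every litter but litter 3, and Ifit3 and Ifit3b were higher in the ErbB4myeKO library of litter 5. Without litter 2, the ratios were -0.15 for Ifit1, -0.22 for Ifit2, -0.26 for Ifit3, -0.16 for Ifit3b and -0.27 for Rsad2, each still below 0. The counts of members lower at an unadjusted p under 0.05 were then 1 without litter 2 or litter 4, and 5 without litter 5 (limma). With no block for litter the count was 0.

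The targeted gene did not separate the labelled genotypes, and the Cre site did not do so in every litter, so each genotype is that of the label. Erbb4 lay between 0.280 and 0.852 TPM in libraries labelled ErbB4myeKO and between 0.372 and 0.716 TPM in those labelled ErbB4FF. It was higher in ErbB4myeKO in 4 of 6 litters (mean log2 ratio 0.17) and too low to pass the filter for testing. Lyz2, looked at outside the rule for named genes because it holds the Cre, was lower in ErbB4myeKO in litters 1 to 5 and higher in litter 6 (7997 against 2964 TPM). Without litter 6 all 9 antiviral genes were still lower, with log2 ratios from -0.15 for Ifit3b to -0.72 for Ifitm1. Macrophage markers, Lyz2 among them, summed to between 7179 and 15964 TPM in ErbB4FF and between 8417 and 12521 TPM in ErbB4myeKO. The sum was lower in ErbB4myeKO in litters 1 to 5 and higher in litter 6 (12521 against 7179 TPM), as was Lyz2 itself. Without Lyz2, a step added after the data were seen, the other 7 macrophage markers summed to between 2708 and 7347 TPM in ErbB4FF and between 2602 and 6223 TPM in ErbB4myeKO, and were higher in ErbB4myeKO in 4 of 6 litters. In litters 2 and 4, where all 9 antiviral genes were lower, that sum was 6223 and 5513 TPM in ErbB4myeKO against 4559 and 4617 TPM in ErbB4FF. In litter 3, where 5 of the 9 genes were lower, it was 5301 against 7347 TPM. In litter 5, where 7 were lower, it was 2602 against 2708 TPM. The sum was 5366 against 5251 TPM in litter 1 (8 genes lower) and 4524 against 4215 TPM in litter 6 (7 genes lower). All 8 lymphocyte and all 6 erythroid markers were under 1 TPM in every library. The 12 neutrophil markers summed to between 41.3 and 74.5 TPM in litters 1 to 4 and between 155 and 375 TPM in litters 5 and 6, with Ly6g, Mpo, Elane, Prtn3, Retnlg and Cxcr2 under 1 TPM throughout. The 8 dendritic cell markers, of which Flt3, Zbtb46, Cd209a, Siglech and Bcl11a were under 1 TPM throughout, summed to between 4.54 and 27.7 TPM in ErbB4FF and between 9.58 and 36.02 TPM in ErbB4myeKO, and were higher in ErbB4myeKO in all 6 litters. Xcr1, the marker of this list with the highest values, had 2.56 to 22.1 TPM in ErbB4FF and 7.72 to 29.0 TPM in ErbB4myeKO and was higher in 5 of 6 litters. The 6 stroma markers, with Cdh5 under 1 TPM throughout, summed to between 10.7 and 82.8 TPM in ErbB4FF and between 3.42 and 88.5 TPM in ErbB4myeKO, and were higher in ErbB4myeKO in 4 of 6 litters. The part of macrophages, neutrophils, dendritic cells and stroma in the genotype and litter differences was not tested. In bulk RNA fewer cells of a type and less RNA per cell cannot be told apart.

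Levels also varied between litters. The IFITM genes were highest in litter 5 in both genotypes, and their litter means were lowest in litter 3. Ifitm3 had 4078 and 3890 TPM in litter 5 and 1872 and 1246 TPM in litter 3, ErbB4FF first. Ifit3 and Ifit3b were instead highest in litter 6, and Mx1 was highest in litter 1 and lowest in litter 5. The F test of the litter terms (limma, Benjamini-Hochberg over all genes) called 6 of the 9 genes, against 44.9% of all genes. Its adjusted p was 0.00162 for Ifitm2, 0.00259 for Ifit3b, 0.00442 for Ifitm3, 0.00711 for Mx1, 0.0268 for Ifit3 and 0.0403 for Ifitm1. It did not call Ifit1 (0.224), Ifit2 (0.196) or Rsad2 (0.0900), whose litter means spanned 1.49-fold, 2.02-fold and 2.27-fold. The span was 9.25-fold for Ifit3b, 9.80-fold for Ifitm1, 5.11-fold for Ifitm2, 4.12-fold for Mx1, 3.41-fold for Ifit3 and 2.61-fold for Ifitm3.

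Litter 5 stood apart in the whole table. Its libraries held 71.4% and 74.7% of all TPM in the deposited transcripts, against 59.0% to 64.9% elsewhere. Without litter 5, the F test called 11.5% of all genes and 3 of the 9 antiviral genes, Ifit3, Ifit3b and Ifitm2. Eif2s3y, a Y-linked gene, was listed at 0 TPM in both libraries of litters 5 and 6 and had 23.1 to 32.4 TPM in the others, so that sex, litter and culture cannot be told apart.

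**Figure D3:**
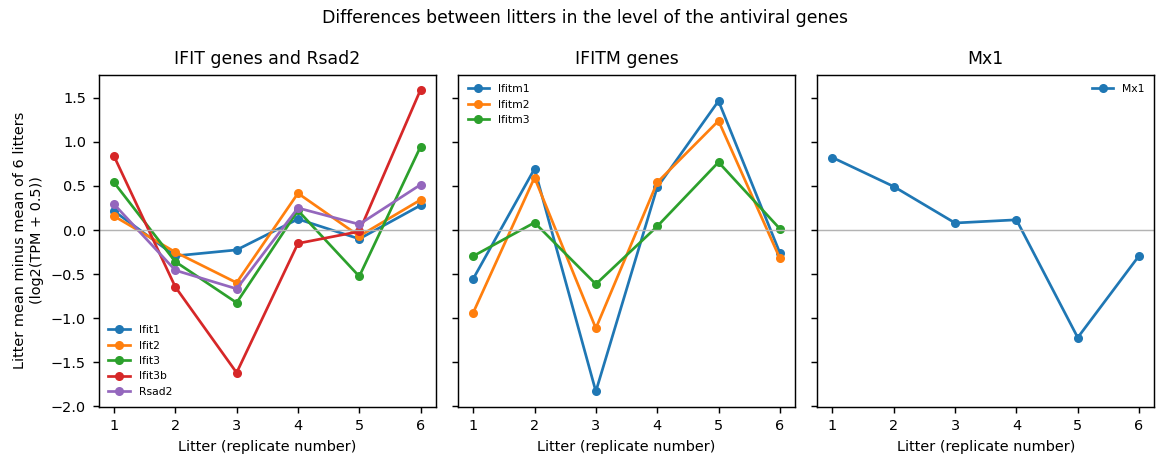
Litter mean of log2(TPM + 0.5), averaged over the 2 littermates, minus the mean of the 6 litters, for the IFIT genes with Rsad2, for the IFITM genes and for Mx1. Lines only join the points of 1 gene, as litters have no order; the IFITM genes peak together in litter 5, where Mx1 is lowest.

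To read how the genes varied from library to library, Pearson's r of log2(TPM + 0.5) was taken over the 6 libraries of each genotype, a step added after the data were seen, with Rsad2 set beside the IFIT genes for its pattern. Among the IFIT genes and Rsad2, r lay between 0.75 and 0.98 in ErbB4FF and between 0.64 and 0.96 in ErbB4myeKO (10 pairs each). Among the IFITM genes it lay between 0.89 and 0.99 and between 0.90 and 0.93 (3 pairs each). Between an IFIT gene or Rsad2 and an IFITM gene, r lay between -0.32 and 0.28 in ErbB4FF and between -0.24 and 0.48 in ErbB4myeKO. With the 2 libraries farthest from the median left out, r of these pairs lay between -0.99 and 0.56 in ErbB4FF. In ErbB4myeKO it then lay between -0.87 and 0.54, so a low r here depended on those libraries for some pairs. Between Mx1 and the IFITM genes r lay between -0.80 and -0.39 over both genotypes, and none of these relations passed a test (smallest exact permutation p = 0.0861, adjusted p = 0.258). Without the 2 libraries farthest from the median, r lay between -0.37 and 0.72 in ErbB4FF and between -0.89 and 0.08 in ErbB4myeKO, so that its sign rested on those libraries for some pairs.

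Over all 72 relations, 7 passed an adjusted p of 0.05 in an exact permutation test over 720 pairings, two-sided. In ErbB4FF these were Ifit1 with Ifit3 (r = 0.98, rho = 1.0, n = 6, exact p = 0.00139, adjusted p = 0.0429), Ifit1 with Rsad2 and the 3 IFITM pairs. In ErbB4myeKO they were Ifit1 with Ifit3 (r = 0.83) and Ifit3 with Rsad2 (r = 0.92). With Spearman's rho no relation fell below an adjusted p of 0.05 (exact permutation, smallest adjusted p = 0.05, n = 6). Without the 2 libraries farthest from the median, r of these 7 pairs lay between 0.79 and 1.00. For other pairs of IFIT genes and Rsad2 it fell as low as -0.16, and for Ifitm1 with Ifitm3 in ErbB4myeKO it was 0.25. Libraries of littermates share a litter, so the 2 genotypes are not separate evidence. The within-litter log2 ratios, from which the litter level is removed, had r between 0.71 and 0.98 among the IFIT genes and Rsad2, and between 0.71 and 0.86 among the IFITM genes. Across these groups, r of the ratios lay between -0.51 and 0.50.

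**Figure D4:**
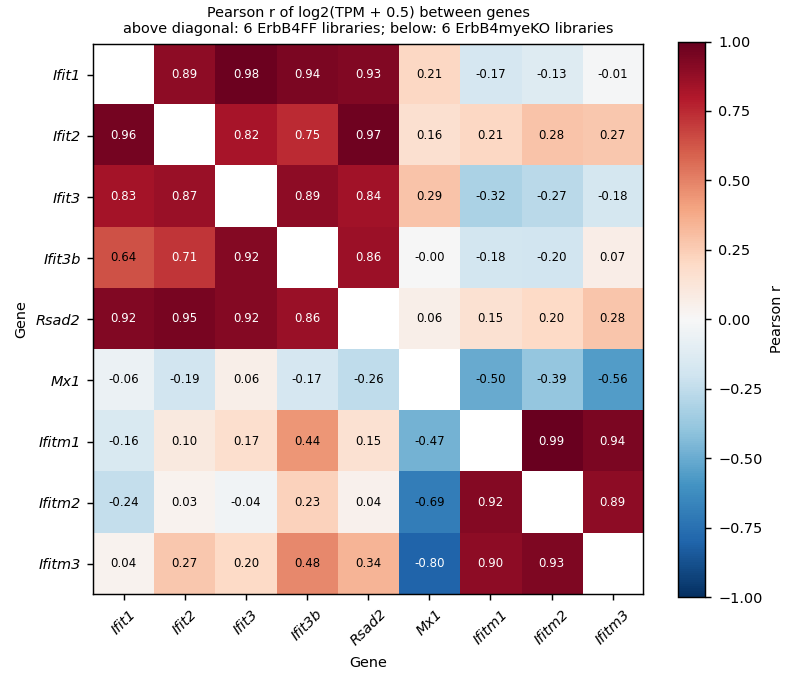
Pearson's r of log2(TPM + 0.5) for each pair of 9 genes, over the 6 ErbB4FF libraries above the diagonal and the 6 ErbB4myeKO libraries below it, coloured from -1 to 1. The 5 genes at the upper left (IFIT genes and Rsad2) and the 3 at the lower right (IFITM genes) form blocks of high r. Between the blocks r lies between -0.32 and 0.48. Without the 2 libraries farthest from the median, not plotted, r between the blocks ran from -0.99 to 0.56.

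TPM allow for transcript length, so the deposited transcripts of each gene can be set in order. As the table holds 1 of 10 transcripts of Mx1, 1 of 3 of Rsad2 and 1 of 2 of Ifit2, this is no order of whole genes. In ErbB4FF libraries the order by mean log2(TPM + 0.5) was Ifitm3, Ifitm2, Ifit2, Rsad2, Ifit3, Ifit1, Ifit3b, Ifitm1 and Mx1. Ifitm3 exceeded Ifitm2 by a log2 of 1.71 ± 0.60 (SD, n = 6 libraries; exact permutation p = 0.0312, adjusted p = 0.125) and Ifit1 exceeded Ifit3b by 3.59 ± 0.98 (SD, n = 6 libraries; exact permutation p = 0.0312, adjusted p = 0.125). Both steps were seen in 6 of 6 libraries, and 0.0312 is the smallest p that 6 libraries allow. The other 6 pairs of neighbours held their order in 4 or 5 of 6 libraries, with adjusted p from 0.321 to 1.0 (exact permutation). Ifit2, Rsad2, Ifit3 and Ifit1 had neighbours apart by a log2 of 0.09, 0.34 and 0.01. Only neighbours were tested, and the order that made them neighbours, with its direction, came from the same libraries. Steps seen in 6 of 6 libraries reached no lower adjusted p than 0.125 (exact permutation). This test therefore does not show that genes were alike in level. By mean TPM, Ifitm3 ranked 30 of all genes and Ifitm2 ranked 104.

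Relatives outside the set had low TPM in the table. Ifit1bl1, which lies within the IFIT cluster, had 0.0519 to 20.2 TPM in ErbB4FF libraries and 2.17 to 6.93 TPM in ErbB4myeKO libraries (log2 ratio -0.46, SE 0.77, exact permutation p = 0.688, limma adjusted p = 0.864). Left out 1 at a time, the litters gave Ifit1bl1 a ratio from -1.29 without litter 1 to 0.03 without litter 6, with -0.10 without litter 2. Ifit1bl1 was lower in ErbB4myeKO in 5 of 6 litters. In litter 1 its log2 ratio was 3.65, where the ErbB4FF library had the 0.0519 TPM, so the mean depended on a value near the floor. Ifitm6 had up to 16.6 TPM, its highest value being in litter 5, as for Ifitm1, Ifitm2 and Ifitm3, and a log2 ratio of -0.60 (SE 0.48, exact permutation p = 0.312, limma adjusted p = 0.708). The ratio of Ifitm6 was -0.31 without litter 2, -0.26 without litter 3 and -1.003 without litter 1. Ifit1bl2, Ifitm5, Ifitm7 and Ifitm10 did not reach a mean of 1 TPM and were not tested.

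The wider interferon pathway was read from a list of 38 genes, all of which passed the filter. In ErbB4myeKO, 32 had a mean log2 ratio below 0, as had 50.2% of all genes tested, and 6 had one above it. Their median was -0.17, against -0.0007 for all genes. The list was chosen with earlier results of these data known, so its counts are not independent evidence of a direction. At an unadjusted p under 0.05 (limma), 8 of the 38 genes were lower, against 4.38% of all genes, and 1 was higher, against 3.83%, and none passed adjustment. The count of 8 ranged from 2 without litter 6 to 14 without litter 5. The F test of litter called 22 of the 38 genes, against 44.9% of all genes.

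Ifnb1, the interferon gene at the head of the loop, had a log2 ratio above 0 that did not pass the test. It ranged from 0.421 to 10.7 TPM (median 6.97) in ErbB4FF libraries and from 2.93 to 8.08 TPM (median 6.33) in ErbB4myeKO libraries, and the log2 ratio was 0.50 (SE 0.42, exact permutation p = 0.469, limma adjusted p = 0.724). It was 0.15 without litter 2 and 0.22 without litter 4. Its ErbB4myeKO library was the higher in 3 of 6 litters, by a log2 of 2.28 in litter 2, 1.90 in litter 4 and 0.04 in litter 5, with 0.879 and 0.421 TPM in the ErbB4FF libraries of litters 2 and 4. In litters 1, 3 and 6 the log2 ratio was -0.60, -0.39 and -0.22. The sign was that of Rsad2 in litters 1 and 6 and the opposite in the other 4, at the 1 time measured. Stat2, which encodes a subunit of ISGF3, had a log2 ratio of -0.19 (SE 0.08, exact permutation p = 0.0625, limma adjusted p = 0.603). Irf9, listed at 0 TPM in 1 library of each genotype, had a direction that changed with the settings (log2 ratio 0.10, SE 0.65), and as for Mx2 a value of 0 does not show that it was silent.

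Of other genes that interferon switches on, Irf7, the factor that amplifies the response, had 806 ± 208 TPM (SD, n = 6) in ErbB4FF and 645 ± 210 TPM (SD, n = 6) in ErbB4myeKO libraries. Its log2 ratio was -0.36 (SE 0.15, exact permutation p = 0.0938, limma adjusted p = 0.603). Isg15, a ubiquitin-like modifier, had a log2 ratio of -0.30 (SE 0.12, exact permutation p = 0.0938, limma adjusted p = 0.603) and Usp18, which removes it, one of -0.21 (SE 0.11, exact permutation p = 0.156, limma adjusted p = 0.612). Without litter 2 the ratios were -0.23 for Irf7, -0.19 for Isg15, -0.14 for Usp18 and -0.31 for Cmpk2, and that of Usp18 was also -0.14 without litter 6. The list genes with the smallest p were Ifngr2, a chain of the IFN-γ receptor (log2 ratio -0.20, SE 0.06, exact permutation p = 0.0312, limma adjusted p = 0.603), and Oas1a, a sensor of double-stranded RNA (-0.26, SE 0.09, exact permutation p = 0.0938, limma adjusted p = 0.603). Among those higher they were Tyk2 (1.03, SE 0.40, exact permutation p = 0.0625, limma adjusted p = 0.603) and Ifnb1. Tyk2, the kinase at the interferon α/β receptor, had 20.3 and 27.3 TPM in litter 5 and at most 6.12 TPM in any other library. Its log2 ratio was 0.42 in litter 5. It was largest in litters 1 (2.41) and 6 (2.53), where the ErbB4FF libraries had 0 and 0.647 TPM. The mean log2 ratio therefore rested on values near the floor and was 1.495 with a pseudocount of 0.1 and 0.809 with one of 1. None of these genes passed adjustment (limma adjusted p from 0.603 to 0.966).

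**Figure D5:**
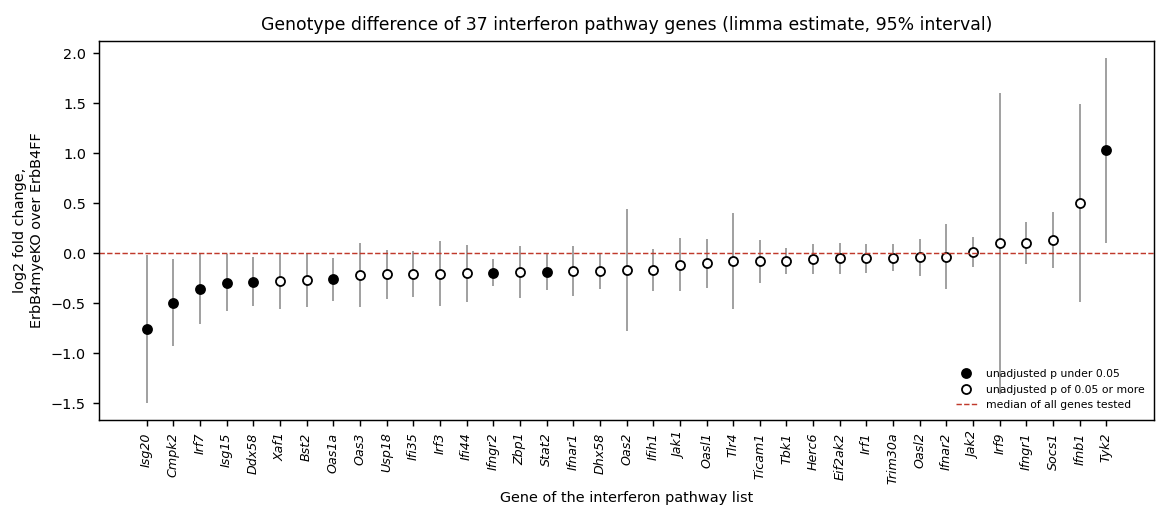
Log2 fold change of ErbB4myeKO over ErbB4FF with its 95% interval (limma) for 37 genes of the interferon pathway list, sorted by value, with filled points at an unadjusted p under 0.05 and a dashed line at the median of all genes tested. Of these points, 31 lie below 0, from Isg20 at the left, and Tyk2 at the right is the only filled point above it.

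The genes whose levels were most like those of 3 members were looked up among 5766 genes outside the set. This is a description, since all genes share the 12 libraries. Of the members, left out of this search, Rsad2 (r = 0.94) and Ifit2 (r = 0.92) had a higher r with Ifit1 over the 12 libraries than Cmpk2. Over the 12 libraries, Ifit1 was most like Vwa5a (r = 0.95), Cmpk2 (r = 0.91), C3ar1 (r = 0.91), Nectin4 (r = 0.89) and Slamf9 (r = 0.88). Ifitm3 was most like Hpcal1 (r = 0.98), Keap1 (r = 0.98), Rilpl2 (r = 0.97), 2310022A10Rik (r = 0.97) and Ccnd3 (r = 0.96). Over the same libraries Ifitm3 had r of 0.91 with Ifitm2 and 0.90 with Ifitm1, so a high r with Ifitm3 was not particular to the IFITM genes. Mx1 was most like Zfp281 (r = 0.93), Snw1 (r = 0.91), Psme2b (r = 0.91), Ddx52 (r = 0.90) and Rsbn1 (r = 0.90). Cmpk2 is itself known as an interferon-stimulated gene. Over the within-litter log2 ratios of 6 litters, Ifit1 was most like Cxcl11, Irgm2, Vwa5a, Edn1 and Tlr7 (r from 0.98 to 0.99). Ifitm3 was there most like Anxa11, Sirpb1a, Mnt, Selenom and Sh3bp2 (r = 0.98), and Mx1 most like Ltn1, Cwc15, Esf1, Xiap and Rab8b (r from 0.95 to 0.99).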

How the data were processed

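RNA sequencing covered 12 libraries, grouped by the genotype and numbered by the litter on their labels. Libraries were poly(A) RNA, read as single ends of 75 bases. The authors pseudoaligned reads with kallisto and deposited TPM of APPRIS principal transcripts, beside sleuth's mean natural log of normalized estimated counts. The deposited p-value and q-value columns of the authors' genotype test were not used. Versions of kallisto, sleuth and the transcriptome were not given in the sources used here. The labels name mm10.

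TPM of 28808 transcripts were counted once each (405 lines were repeats) and summed to 22243 genes. For the 8780 genes whose mean reached 1 TPM, log2(TPM + 0.5) was modelled on genotype and a block for litter in limma 3.58.1 (R 4.3.3, lmFit and trended eBayes), and p was adjusted over all genes (Benjamini-Hochberg). A fold change on this scale understates that of low genes. TPM carry no read depth, so precision rests on the spread between litters. Littermates' deviations correlated with r from 0.273 to 0.774 in all 6 litters, and the study pairs littermates, so the block was kept. Single values were tested by exact two-sided permutation within litters. Python 3.11.15 with numpy 2.4.6, pandas 2.3.3 and biopython 1.88 was used. On simulated data of 8780 genes, the fit found 67% of genes with a planted log2 change of 1 and 92% with one of 2, while 3 of 162 calls were false.

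The members and lists were chosen with earlier results of these data known. Named genes are all members, 6 further IFIT and IFITM genes and pathway genes chosen by name. Also named are the 2 pathway genes with the smallest p in each direction and Erbb4. So are the 5 genes outside the set most like each of Ifit1, Ifitm3 and Mx1. Alternatives were no block, a Y-linked covariate, other pseudocounts, filters and scalings, limma without trend, 1 transcript per gene, and each litter left out. Rescaling to the total of principal transcripts and summing Ifit3 with Ifit3b were added after the data were seen. A gene of the pathway list is counted in the list but not reported here by itself.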

Additional observations from a re-analysis of the deposited data

Results flagged for a closer look

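Among 27 groups of 6 values (9 genes, each in both genotypes and as within-litter log2 ratios), 3 held a value far from the rest by Dixon's test, which chance does in about 1 of 20 groups. Ifit1 in the ErbB4myeKO library of litter 2 was low, with log2(TPM + 0.5) of 7.77. The Ifitm1 ratio of litter 3 was low, with a log2 ratio of -2.96. Mx1 in the ErbB4myeKO library of litter 5 was low, with log2(TPM + 0.5) of 1.47.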

How the results depend on the processing

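All 9 members kept a log2 ratio below 0 under every alternative run, and none passed adjustment. Members lower at an unadjusted p under 0.05, 3 as reported, were 0 with no replicate block for litter, 1 with limma without trend, and 1 to 5 with a litter left out. Pathway genes lower, 8 as reported, were 1 with no block, 3 with the Y-linked covariate (Eif2s3y was at 0 TPM in both littermates or in neither, so within litters it cannot adjust for sex), 5 with no filter, 4 without trend, 3 with principal total scaling, and 2 to 14 with a litter left out. Over all genes, 35 were lower and 40 higher with no block, 255 were lower and 436 higher with principal total scaling, and 450 lower and 533 higher with no filter (385 and 336 as reported). With a litter left out, 217 to 484 were lower, 196 to 399 higher, 0 to 1 called for genotype (Igkv1-88, without litter 3) and 1002 to 4092 called for litter. The block changed no other call. The litter call of Ifit3 was lost with no filter (adjusted p = 0.0679), and that of Ifitm1 with a pseudocount of 0.1 (0.0590), no filter (0.0960), no trend (0.0563) and the highest transcript only (0.0529), all by limma. With a litter left out, the adjusted p of the litter test ranged from 0.0475 to 0.305 for Ifit2, from 0.00634 to 0.0897 for Ifit3, from 0.00334 to 0.148 for Ifitm1, from 0.00348 to 0.0722 for Ifitm3, from 0.00850 to 0.0634 for Mx1 and from 0.0158 to 0.174 for Rsad2. Leaving out litter 2 gained Ifit2 and Rsad2, litter 5 lost Ifitm1, Ifitm3 and Mx1, litters 3 and 6 lost Ifit3, and litters 2, 4 and 6 lost Ifitm1. Irf9 turned to -0.27 with a pseudocount of 0.1, and ranged from -0.49 to 0.50 with a litter left out. Ifitm1 lay below Mx1 (log2 -0.43) with its highest transcript only, and Ifit3 minus Ifit1 ranged from -0.14 to 0.15 with a litter left out. The cause of these shifts was not tested, except that fewer libraries enter a fit without a litter. No depth per library limits what can be said of Ifitm1 and Mx1, the least abundant members.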
